A study of Mus musculus with 6 samples.

Results

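The interferon-induced GTPases examined here are 10 mouse genes, found in the deposited count matrices by their symbols among 32285 genes in all. They are guanylate-binding proteins (Gbp2, Gbp3, Gbp4, Gbp5 and Gbp7) and immunity-related GTPases (Igtp, Irgm1, Irgm2, Iigp1 and Ifi47). All 10 were detected. Single cells were sequenced with the 10x 3′ method from 6 libraries of 1 mouse each, whose treatment was 2DG or 2FF, either of these plus anti-PD-L1, anti-PD-L1 alone or no agent (control).

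Interferon-gamma is a cytokine that activated T and NK cells secrete. It binds the receptor made of Ifngr1 and Ifngr2, activates the kinases Jak1 and Jak2, and switches on Irf1 and a large set of target genes, among which the GTPases of both families are some of the most strongly induced. The proteins gather on membranes that surround intracellular bacteria and parasites. Irgm1, Irgm2 and Igtp act as regulators that hold effector members such as Iigp1 in the inactive state on the cell's own membranes, and Gbp2 and Gbp5 are known for their part in inflammasome activation in macrophages.

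The design is given here as the methods describe it. All mice were female C57BL/6 animals of 6 to 8 weeks that carried tumors of KPCA cells in the ovarian bursa, and they were sacrificed on day 30. KPCA is a mouse ovarian cancer line that can repair DNA by homologous recombination and has mutant Trp53 and overexpressed Ccne1 and Akt2. 2DG is a glucose analog that lowers branched N-glycans and was injected intraperitoneally at 500 mg/kg every 2 days from day 9. 2FF is a fucose analog that inhibits fucosylation. It was given by gavage every 2 days, and the tumor cells of both 2FF groups had been kept in 2FF for 3 days before they were implanted. The antibody to PD-L1, the ligand of the inhibitory T cell receptor PD-1, was injected at 5 mg/kg 2 times a week for 3 weeks. Control mice received solvent and a control rat IgG. The sample labels give these treatments but name the tissue lymph node, and the series text speaks of young and aged mice. Of the lymph node stromal markers, Ccl19 had 1 to 6 UMIs (unique molecular identifiers, each standing for 1 counted RNA molecule) per library and Ccl21a 0 to 1. Cr2 had 77 to 311, and Pdpn, which macrophages also express, had 2902 to 7869. Tumor cells were rare too, with 0 to 17 keratin-positive tumor-like cells in a library. The cells were therefore mainly immune cells. Of the cells that passed the filters below, B-like cells were 0.904% to 4.83% in a library and macrophage-like cells 11.7% to 19.2%. The paper describes the sequenced material as orthotopic KPCA tumors, which differs from the labels, and the tissue of origin was not tested here.

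The files hold 57078 cells, of which 51633 had at least 250 genes and no more than 5% mitochondrial UMIs, and 38909 of these were placed in 12 classes by marker genes. Each library had between 61859753 and 73885214 UMIs. Any 2 libraries shared 16 to 34 cell barcodes. The control library stood apart. Its neutrophil-like cells were 28.1% of the kept cells, against 1.98% to 4.24% in the 5 treated libraries, its T-like cells were 4.43% against 24.3% to 35.1%, and over all its kept cells Ifng stood at 7.33 CPM (UMIs per 1000000 UMIs) against 126 to 176 CPM. Every ratio of a treated library over control below rests on this 1 library, and a difference between mice or library preparations cannot be told apart from a treatment effect.

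In 7 of the 10 genes the DNA before a RefSeq transcript start held the letters of an interferon-stimulated response element. RefSeq promoters of GRCm38.p6 were found for 8 of the 10 members in 9 windows, each searched over the 250 bases before the start. Gbp4 and Iigp1 were not among them. The response element (ISRE) was searched as GAAANNGAAA or its reverse complement TTTCNNTTTC, and the gamma-activated site (GAS), another element of interferon-gamma targets, as TTCNNNGAA, which reads alike on both strands. Among 32851 promoters of the same length, 2.98% held the ISRE letters, 7.02% the GAS letters and 0.332% both. The sequences below are shown because they hold these letters, in capitals, and each is written 5′ to 3′ on the strand of its gene:
Gbp2, chr3:142620597-142620620, plus strand: cttttagTTTCACTTTCactgtct
Gbp3, chr3:142559992-142560021, plus strand: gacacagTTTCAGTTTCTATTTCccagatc
Gbp5, chr3:142496762-142496785, plus strand: tgtgtagTTTCAATTTCagtttag
Gbp7, chr3:142530242-142530299, plus strand: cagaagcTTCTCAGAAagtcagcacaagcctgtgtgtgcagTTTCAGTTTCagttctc
Igtp, chr11:58199504-58199538, plus strand: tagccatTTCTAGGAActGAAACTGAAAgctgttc
Irgm1, chr11:48871428-48871457, minus strand: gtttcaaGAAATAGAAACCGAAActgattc
Irgm2, chr11:58214895-58214929, plus strand: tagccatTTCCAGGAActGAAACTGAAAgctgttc

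The ISRE letters nearest to the RefSeq start ended from 14 bases before it in Irgm1 to 155 bases in Gbp5. In the GENCODE annotation, whose transcripts can start elsewhere, all 30 bases of the Irgm1 stretch and 19 of 24 bases of the Gbp2 stretch lie in an exon of the same gene, and the Gbp5 and Irgm2 stretches lie inside their gene but in no exon. The sequences of Gbp7, Igtp and Irgm2 had the same order, a GAS followed by an ISRE, but the 35 bases of Igtp and Irgm2 are nearly identical. GAS letters were found in 4 members (Gbp5, Gbp7, Igtp and Irgm2). In Gbp5 the GAS nearest to the start ended 43 bases before it and so followed the ISRE. Neither motif was found in the window of Ifi47. Such matches are descriptions of letters and say nothing of a factor's binding.

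The genes lie in a few clusters of GRCm38. Gbp5 (chr3:142493978-142522344), Gbp7 (chr3:142530342-142550149), Gbp3 (chr3:142560026-142573209) and Gbp2 (chr3:142620602-142638008) are neighbours on the plus strand, all protein coding. Gbp4 (chr5:105115767-105139586, minus strand) overlaps Gbp8 and Gbp9 on the same strand. Irgm1 (chr11:48861968-48871683, minus strand), Ifi47 (chr11:49076587-49096974), Igtp (chr11:58199556-58207591) and Irgm2 (chr11:58199618-58222782) are on chromosome 11, and Iigp1 (chr18:60376027-60392634) on chromosome 18. Igtp and Irgm2 overlap on the same strand, as do Ifi47 and Olfr56, so reads in the shared stretches could not be split between them with certainty.

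Myeloid cells held most of the family's RNA. Summed over the 10 genes, the level was highest at the median in neutrophil-like cells, at 2259 CPM over 6 libraries (657 to 3615), then in monocyte-like cells at 1745 CPM (630.3 to 2242) and in macrophage-like cells at 1686 CPM (763 to 2163). Treg-like cells, the regulatory T cells gated on Foxp3, reached 1183 CPM (1075 to 1325), and CD8 T-like cells 581 CPM (508 to 659). The order differed in the control library. There Treg-like cells were highest at 1075 CPM, before macrophage-like (763), mature dendritic-like (692), neutrophil-like (657) and monocyte-like cells (630.3). Macrophage-like cells supplied 21.6% to 35.3% of all family UMIs of a library and monocyte-like cells 14.8% to 33.6%, whereas neutrophil-like cells gave 21.1% in the control library and as little as 1.84% elsewhere. These shares also follow the size of each class. In control, monocyte-like cells held 33.4% of family UMIs and 33.7% of all UMIs, neutrophil-like cells 21.1% and 20.4%, and macrophage-like cells 21.6% and 18.0%. In each treated library the family share of these classes exceeded their share of all UMIs, as with 2FF in macrophage-like cells (35.3% and 25.7%). Cells outside the 12 classes held 14.2% to 24.5%.

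**Figure D1:**
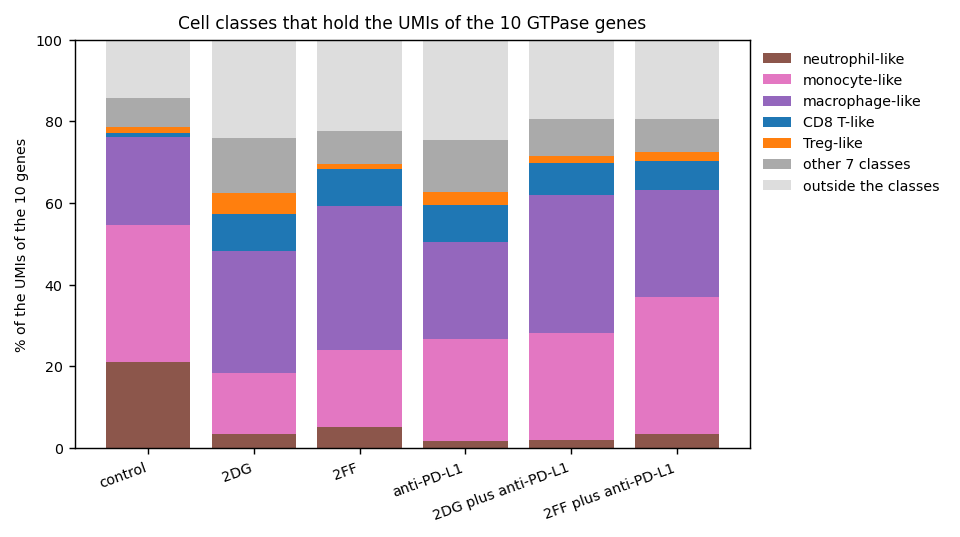
Stacked bars show, for each of the 6 libraries, the percentage of the UMIs of the 10 GTPase genes that came from each cell class. Macrophage-like cells supplied 21.6% to 35.3% and monocyte-like cells 14.8% to 33.6%, and the neutrophil-like part was largest in the control library at 21.1%. The bars are not scaled by the share of all UMIs that each class held.

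The class with the highest median level differed between members. It was the neutrophil-like class for Gbp2 (893 CPM), Gbp5 (331 CPM), Gbp7 (300.1 CPM), Irgm1 (116 CPM) and Irgm2 (86.0 CPM), the monocyte-like class for Gbp3 (134 CPM) and Ifi47 (195 CPM), the macrophage-like class for Gbp4 (106 CPM) and Iigp1 (334 CPM), and the Treg-like class for Igtp (175 CPM). The lowest median was in NK-like cells for Gbp2, Igtp, Irgm1, Irgm2 and Iigp1, and in type 1 dendritic-like cells for Gbp3, Gbp4, Gbp7 and Ifi47. Neighbours in these orders mostly did not separate: the ranges over 6 libraries overlapped in 109 of 110 pairs of neighbouring classes. These are CPM values that the control library widens downward in the myeloid classes.

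**Figure D2:**
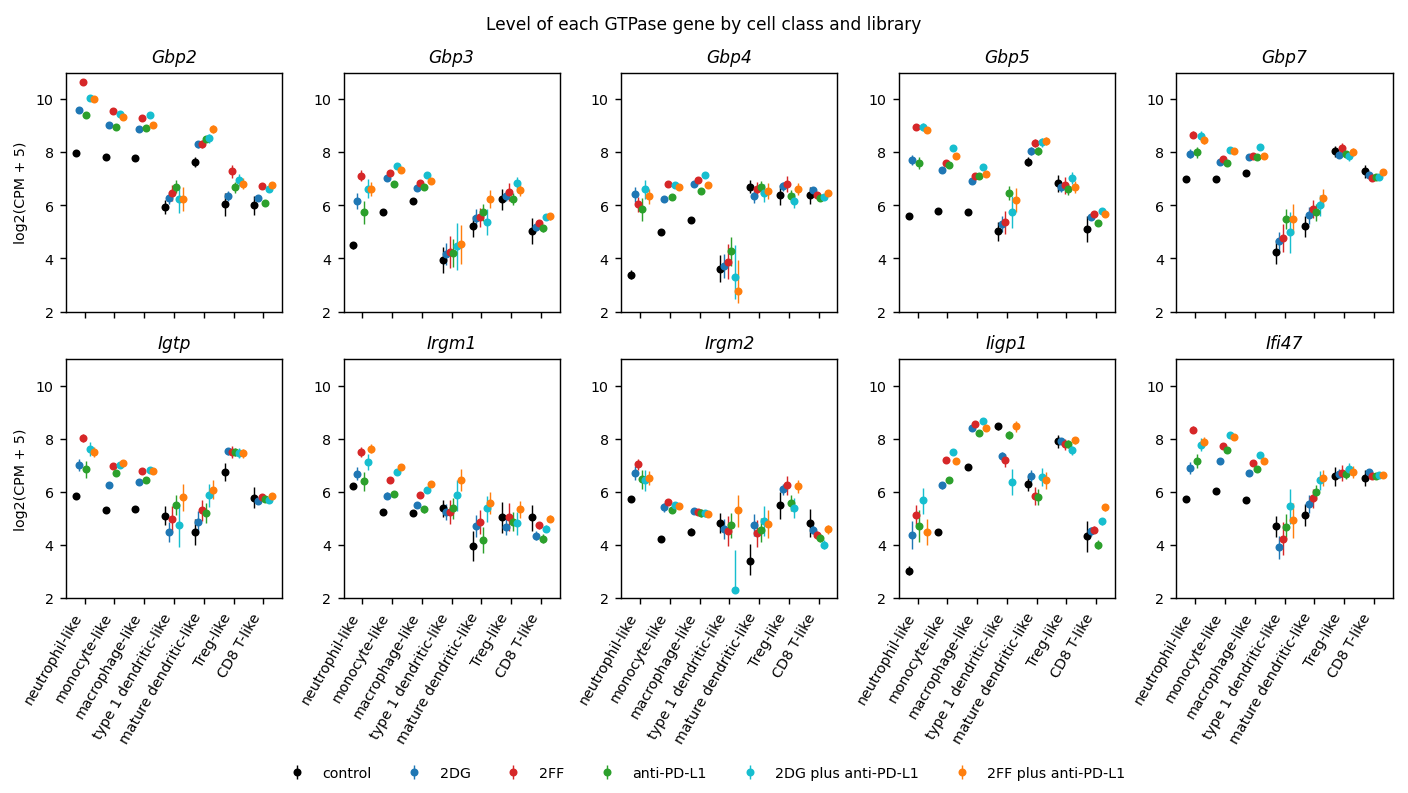
Each panel shows the level of 1 gene, as log2(CPM + 5), in 7 cell classes, with 1 point for each of the 6 libraries and bars for the exact 95% Poisson interval, which covers counting error only. In the neutrophil-, monocyte- and macrophage-like classes the control point is the lowest for each of the 10 genes. In CD8 T-like cells the control point is the lowest for 4 genes, the highest for 3 and among the others for the rest.

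The treated libraries were compared with control first in monocyte-like cells, which have many cells in all 6 libraries (807 to 2311). All 10 members stood above control in each of the 5 treated libraries, and their 95% counting intervals were clear of the control's in all 5. Of all genes, 38.6% stood above control in all 5 libraries. Gbp2 was at 222 CPM in control, 517 with 2DG, 746 with 2FF, 493 with anti-PD-L1, 692 with 2DG plus anti-PD-L1 and 644 with 2FF plus anti-PD-L1. Iigp1, an effector GTPase, was at 17.2 CPM in control and at 70.9, 142, 83.4, 175 and 137 CPM in the treated libraries in the same order. The control value was the lowest for both genes, and the treated median was 2.89 times the control for Gbp2 and 7.95 times for Iigp1. Ifi47 went from 60.2 CPM in control to between 140.0 and 277.7 CPM, and Gbp5 from 51.0 to between 156 and 281 CPM. Gbp7 differed least, at 121 CPM in control and 188 to 267 CPM in the treated libraries. Neutrophil markers in these sums added up to 1203 CPM in control and 215 to 625 CPM in the treated libraries, T cell markers to 3.41 and 7.81 to 28.8 CPM, and the median cell had 10817 UMIs in control and 6796.5 to 8473.5 elsewhere. The part of these in the ratios was not tested.

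Past 2-fold over control, on the scale of log2(CPM + 5), were 7 of the 10 members in monocyte-like cells with 2DG, where 3.48% of all tested genes were past it. With 2FF there were 9 of 10 against 3.38%, and with anti-PD-L1 there were 8 of 10 against 3.68%. The median log2 ratio of the members was 1.19 with 2DG, 1.69 with 2FF and 1.21 with anti-PD-L1, beside 0.14, 0.11 and 0.12 for all tested genes. These comparisons share the control library, with 1 library in each group there is no replicate check, and no test was made.

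In macrophage-like cells the same direction was seen with smaller ratios. All 10 members stood above control in all 5 treated libraries, as did 23.1% of all genes, and for 9 members the intervals were clear of control in all 5. The exception was Irgm1, which was at 32.0 CPM in control and at 35.8 CPM with anti-PD-L1. Iigp1 was at 117 CPM in control, 334.1 with 2DG, 373 with 2FF, 291 with anti-PD-L1, 399 with 2DG plus anti-PD-L1 and 334.2 with 2FF plus anti-PD-L1. Gbp2 was at 214 CPM in control and 461 to 669 CPM in the treated libraries. Each of the 3 single agents had 6 of 10 members past 2-fold over control, where 0.887% of all genes were past it with 2DG, 1.3% with 2FF and 1.01% with anti-PD-L1. The members' median log2 ratios were 1.02, 1.39 and 1.08 in the same order. Neutrophil markers in the macrophage-like sums added up to 742 CPM in control and 73.4 to 164 CPM in the treated libraries, T cell markers to 4.08 and 6.91 to 23.6 CPM, and the part of either in these ratios was not tested.

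In neutrophil-like cells the median over the members of the treated over control ratio was 4.32 times, beside 3.17 times in monocyte-like and 2.56 times in macrophage-like cells. All 10 members stood above control in all 5 treated libraries, and so did 29.9% of all genes. Gbp2 was at 244 CPM in control, 761 with 2DG, 1610 with 2FF, 675 with anti-PD-L1, 1051 with 2DG plus anti-PD-L1 and 1026 with 2FF plus anti-PD-L1. Gbp5 was at 44.0 CPM in control, 205 with 2DG, 494 with 2FF, 190.3 with anti-PD-L1, 491 with 2DG plus anti-PD-L1 and 458 with 2FF plus anti-PD-L1, so that its treated median was 10.4 times the control. Gbp4 went from 5.43 CPM to between 52.6 and 92.8 CPM, a median of 14.0 times. Irgm1 and Irgm2, both regulators of the immunity-related GTPases, had lower ratios of 1.90 and 1.83 times, and Irgm1 with anti-PD-L1 (79.6 CPM, control 70.7) was the 1 value of the class whose interval met that of control. With 2DG 7 of 10 members were past 2-fold over control (7.01% of all genes), with 2FF all 10 (9.2%) and with anti-PD-L1 7 (6.41%). The members' median log2 ratios were 1.26, 2.40 and 1.34.

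Other properties of the neutrophil-like sums moved with these ratios. The control library had 2551 such cells and the treated libraries 179 to 391. Their monocyte markers summed to 775 CPM in control and to 1544 to 2281 CPM in the treated libraries, while the neutrophil markers were at 52773 CPM in control and between 34935 and 104209 CPM elsewhere. The cells had a median of 4071 UMIs in control and 2589 to 3322.5 in the treated libraries. The part of these in the ratios was not tested. In such sums a change in every cell and a change in the mix of cells within the class cannot be told apart.

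In CD8 T-like cells the members' median ratios over control were near 1, with differences between members. There were 121 such cells in the control library and 1143 to 2056 in the others. No member was past 2-fold over control with 2DG, 2FF or anti-PD-L1, where 1.16%, 1.86% and 1.62% of all genes were past it, and the members' median log2 ratios were 0.16, 0.05 and -0.09. Gbp2 was at 59.9 CPM in control and 62.8 to 105 CPM in the treated libraries, a median of 1.57 times, and 3 of 5 intervals lay wholly above that of control. Iigp1 was at 15.0 CPM in control and 11.2 to 37.9 CPM in the treated libraries, and its highest value, with 2FF plus anti-PD-L1, was past 2-fold over control (log2 ratio 1.10). Gbp4 was at 79.2 CPM in control and a median of 79.0 CPM over the treated, and Ifi47 at 87.8 CPM and 90.8 to 102 CPM. Above control in all 5 treated libraries were 4 members (Gbp2, Gbp3, Gbp5 and Ifi47), beside 35.8% of all genes. Below it in all 5 were 3 members (Gbp7, Irgm1 and Irgm2), beside 29.8% of all genes. Of their treated values, 2 of 5 for Irgm1, 1 of 5 for Irgm2 and 0 of 5 for Gbp7 had an interval wholly below that of control. In the control library 28.9% of CD8 T-like cells held 2 or more marker UMIs of another lineage, against 8.77% to 13.9% in the treated libraries, and the part of such cells in these values was not tested. The interval of the control value is wide with 121 cells, at 45.3 to 77.8 CPM for Gbp2.

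**Figure D3:**
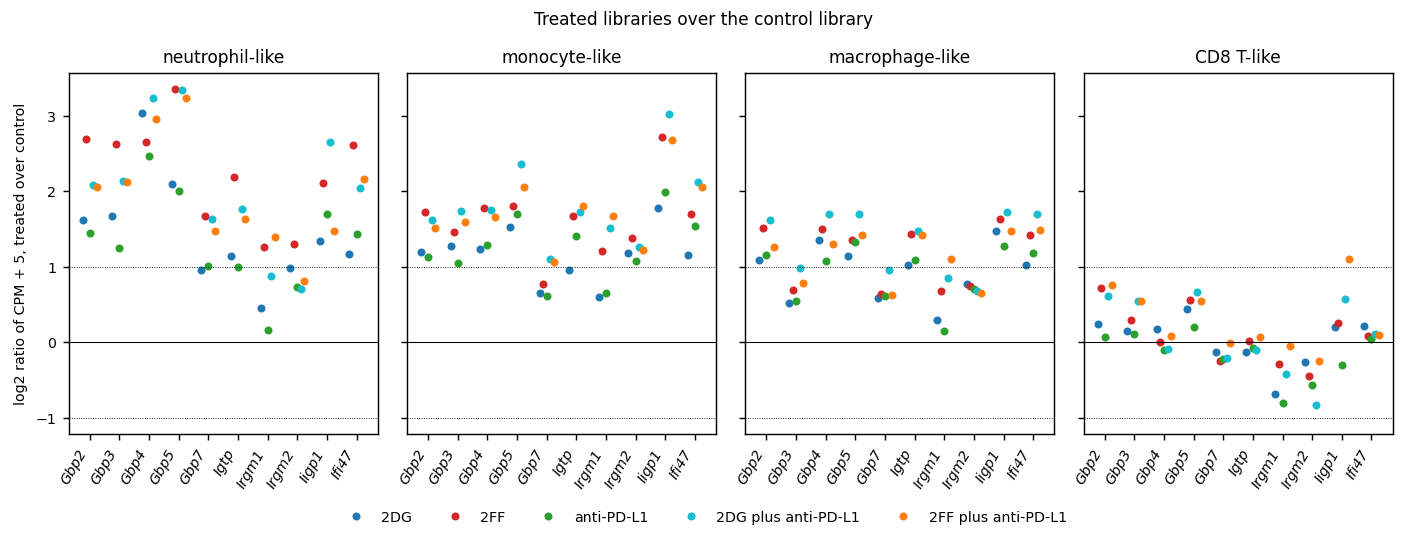
Points show the log2 ratio of CPM + 5 of each of the 5 treated libraries over the control library for the 10 genes in neutrophil-, monocyte-, macrophage- and CD8 T-like cells, with dotted lines at 2-fold. With 2FF the points reach a median of 2.40 in neutrophil-like, 1.69 in monocyte-like and 1.39 in macrophage-like cells, and 0.05 in CD8 T-like cells.

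Treg-like cells had high levels in all 6 libraries, control included. Iigp1 was at 235 CPM in control and 185 to 241 CPM in the treated libraries. Igtp, a regulatory GTPase also known as Irgm3, was at 103 CPM in control and 169.8 to 180.0 CPM in the treated libraries, whose intervals were clear of control in all 5. Above control in all 5 were 4 members (Gbp2, Gbp3, Igtp and Ifi47), where 27.6% of all genes were. The control library had 75 Treg-like cells, and their neutrophil markers summed to 1095 CPM against 26.9 to 103 CPM in the treated libraries. In type 1 dendritic-like cells, of which a library had 26 to 105, 4 members were above control in all 5 libraries, with 19.5% of all genes. Iigp1 in these cells was at 349 CPM in control, 157 with 2DG, 143 with 2FF, 279 with anti-PD-L1, 78.8 with 2DG plus anti-PD-L1 and 349 with 2FF plus anti-PD-L1. In B-like cells (82 in control, 125 to 436 elsewhere) 9 members stood above control in all 5 (32.1% of all genes) and Gbp3 below it (21.5%). The median ratio over the members was 2.74 times, but no member had intervals clear of control in all 5. In control 67.1% of B-like cells held 2 or more marker UMIs of another lineage, against 23.9% to 33.5% elsewhere. Type 2 dendritic-like cells had 9 members above control in all 5 (23.6%) and non-classical monocyte-like cells 10 (31.7%).

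Per cell, the family's RNA was spread unevenly in the myeloid classes. Given as UMIs of the 10 genes per 10000 UMIs of a cell, the median monocyte-like cell had 2.28 in control, 8.39 with 2DG, 13.4 with 2FF, 9.04 with anti-PD-L1, 17.1 with 2DG plus anti-PD-L1 and 15.8 with 2FF plus anti-PD-L1. The median macrophage-like cell had 3.59 in control and 10.5 to 18.1 in the treated libraries. The median neutrophil-like cell had 2.09 in control and 6.93 to 21.8 elsewhere, and the 90th percentile was 18.1 in control and 46.0 to 106 in the treated libraries. The median CD8 T-like cell had 4.64 in control and 4.02 to 4.77 in the others. Among the classes given here, the control cells were thus low in the 3 myeloid classes and inside the treated range in the CD8 T-like class.

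**Figure D4:**
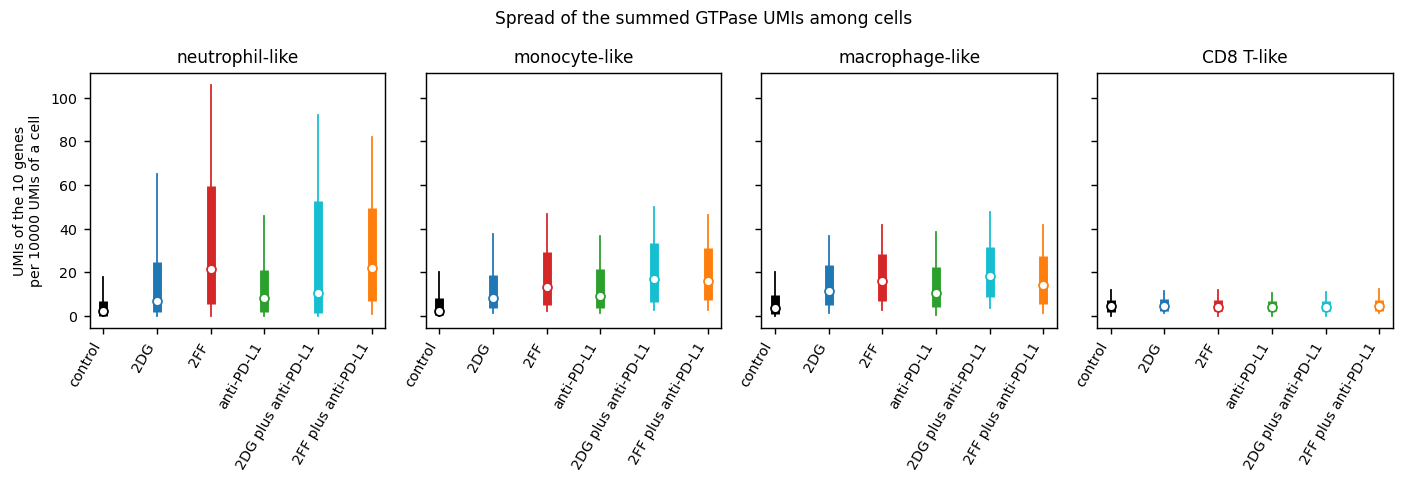
For 4 cell classes and 6 libraries, the white point is the median over cells of the UMIs of the 10 genes per 10000 UMIs of the cell, the thick bar runs from the 25th to the 75th percentile and the thin line from the 10th to the 90th. In neutrophil-like cells the 90th percentile is 18.1 in control and 46.0 to 106 in the treated libraries, and in CD8 T-like cells all medians lie between 4.02 and 4.77.

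The share of cells with at least 1 Gbp2 UMI was compared after each cell was thinned to 1000 UMIs. In macrophage-like cells it was 15.3% in control and 30.4% to 41.5% in the treated libraries. Unthinned it was 45.6% and 68.7% to 83.6%, at median depths of 12333 UMIs in control and 9004 to 9926 UMIs. In neutrophil-like cells the thinned share was 14.1% in control and 31.5% to 51.8% elsewhere. In CD8 T-like cells of the same libraries it was 5.43% in control and 5.48% to 7.42% in the treated libraries. Between 0 and 92 cells of a class and library had fewer than 1000 UMIs and were left out of these shares.

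The combination libraries were compared with anti-PD-L1 alone, which asks what each inhibitor added to the antibody. Both comparisons share the anti-PD-L1 library. In monocyte-like cells all 10 members stood above the antibody alone in both combinations, mostly by less than 2-fold, with a median log2 ratio of 0.54 with 2DG and 0.42 with 2FF. Of all tested genes 38.4% and 35.4% stood above it, with medians of -0.07 and -0.09. Past 2-fold was 1 member with 2DG (Iigp1, log2 ratio 1.03, where 0.342% of all genes were past it) and 1 with 2FF (Irgm1, 1.02, where 0.421% were). In macrophage-like cells no member was past 2-fold with either, beside 0.696% of all genes with 2DG and 0.457% with 2FF, and the medians were 0.45 and 0.22. In neutrophil-like cells 9 members had enough UMIs, all but Iigp1. Gbp5 was past 2-fold with 2DG (1.35, against 3.47% of all genes), and Gbp5 and Irgm1 with 2FF (1.24 and 1.23, against 2.89%). In CD8 T-like cells no member was past it with 2DG (0.446% of all genes) and 1 was with 2FF (0.558%). That member was Iigp1, with 11.2 CPM with the antibody and 37.9 CPM with the combination.

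Against 2DG alone, the members' median log2 ratio in the 2DG combination was 0.65 in monocyte-like, 0.46 in macrophage-like and 0.47 in neutrophil-like cells. The medians of all tested genes were -0.08, -0.06 and 0.04. With 2FF the members' medians were 0.13, -0.01 and -0.47, beside -0.05, -0.02 and -0.13 for all tested genes. In neutrophil-like cells Gbp2 was at 1610 CPM with 2FF alone and 1026 CPM with the combination. The counts of 1 library on each side do not say whether these differences exceed those between mice.

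Genes of the interferon-gamma signal chain were examined in the same sums. Ifng itself came mainly from T and NK cells, at 196 CPM in CD8 T-like cells of the control and 429 to 574 CPM in those of the treated libraries. In conventional CD4 T-like cells it was at 170 CPM in control and 362 to 604 CPM elsewhere, and in NK-like cells at 280 CPM (19 control cells) and 199 to 292 CPM. Ifngr2, the signalling chain of the receptor, was at 15.0 CPM in CD8 T-like cells of the control and 7.17 to 12.1 CPM in the treated ones, whereas macrophage-like cells had 119 CPM and 124 to 151 CPM. In NK-like cells it had no UMI in the 19 control cells and 1.86 to 8.50 CPM in the treated libraries, and in conventional CD4 T-like cells it was at 9.24 CPM and 8.28 to 18.1 CPM. The T and NK classes were thus below the macrophage-like class in Ifngr2 in every library.

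With 2FF in monocyte-like cells, other interferon-gamma targets were past 2-fold over control for 8 of 9 tested genes, among them Cxcl9 (log2 ratio 2.32) and Cxcl10 (2.21), which attract T cells, and Ciita (2.12), which controls MHC class II genes. Other interferon-inducible GTPases were past it for 6 of 8, led by Gm4951 (2.34) and Gbp6 (1.83). Of the signal chain 3 of 11 were past it, among them Socs1 (2.00), which inhibits the kinases, and Irf1 (1.88). Genes known as type I interferon-stimulated were past it for 11 of 15, with Ifit2 at 1.69 and Oas3 at 1.42, and none of 10 autophagy genes was. Of all tested genes 3.38% were past it. With 2DG and with anti-PD-L1 the counts in monocyte-like cells were 5 and 6 of 9 for the targets, 4 of 7 and 4 of 8 for the other GTPases, and 6 and 11 of 15 for the type I genes. Of all tested genes 3.48% and 3.68% were past it. With 2FF in macrophage-like cells the same lists gave 6 of 10, 3 of 9, 4 of 11, 1 of 15 and 0 of 10, beside 1.3% of all genes. In CD8 T-like cells these lists gave 2 of 9, 0 of 6, 1 of 11, 0 of 14 and 0 of 10, beside 1.86% of all genes. There the type I genes were past 2-fold lower for 1 of 14 with 2FF (1.37% of all genes). With 2DG they were past 2-fold lower for 3 of 13 (1.39% of all genes), with a median log2 ratio of -0.67.

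Differences between cell classes could be tested, since each class was measured in all 6 mice. Sums per class and library were scaled with TMM factors, edgeR's correction for differences in RNA makeup, and fitted with its quasi-likelihood test with the library as a block, and p-values were adjusted over all tested genes by the Benjamini-Hochberg method. A gene was called at an adjusted p of 0.05. These p-values rest on how much the difference between the classes varied among the 6 libraries, which also differ in treatment.

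Treg-like cells had more of every member than conventional CD4 T-like cells. All 10 were called higher and none lower, where 14.8% of all tested genes were called higher and 11.8% lower, and the median log2 difference was 1.01 for the members and -0.01 for all genes. Iigp1 was at 185 to 241 CPM (median 227) in Treg-like and 19.4 to 51.7 CPM (median 35.2) in conventional CD4 T-like cells, with ranges that did not overlap. Its log2 difference was 2.58 ± 0.15 (SE, 6 libraries, edgeR adjusted p = 5.26e-08). Igtp was at 103 to 180.0 CPM and 36.0 to 63.1 CPM, with a difference of 1.76 ± 0.10 (edgeR adjusted p = 2.81e-08). Irgm2 (1.69) and Gbp3 (1.55) followed, and their ranges did not overlap either. The smallest differences were those of Gbp2 (0.46) and Irgm1 (0.53 ± 0.15, edgeR adjusted p = 0.0196). The other 9 members were higher in 6 of 6 libraries and Irgm1 in 5 of 6. The call of Irgm1 was lost when the 2DG (adjusted p = 0.0812), the anti-PD-L1 (0.0565) or the 2FF plus anti-PD-L1 library (0.0688) was left out, by edgeR's test. It was also lost with DESeq2 (adjusted p = 0.119), with gates that required 1 more marker (0.0739) and without possible doublets (0.0910).

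Other genes of the pathway were measured in the same contrast. Of the other interferon-inducible GTPases 5 of 8 tested were called higher and none lower, led by F830016B08Rik (log2 difference 3.43) and Gm4951 (2.07), both further immunity-related GTPases. Of the signal chain 7 of 11 were called higher, among them Ifngr1 by 0.81 and Ifngr2 by 0.77, and 3 lower, with Ifng at -3.90. Of other interferon-gamma targets 5 of 9 were called higher and none lower, such as Cxcl10 at 0.86 and Tap1, a peptide transporter of antigen presentation, at 0.67. Type I interferon-stimulated genes gave 3 higher of 13 and autophagy genes 1 of 10.

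Against conventional CD4 T-like cells, CD8 T-like cells had 3 of the 10 members called. Called higher were 2 members (14.0% of all genes), Gbp4 by 0.56 and Ifi47 by 0.49, both in 6 of 6 libraries. Called lower was 1 member (14.8% of all genes), Iigp1 by -0.88 ± 0.24 (edgeR adjusted p = 0.0150). Iigp1 was at 11.2 to 37.9 CPM in CD8 T-like and 19.4 to 51.7 CPM in conventional CD4 T-like cells, with overlapping ranges, and its call was lost when gates required 1 more marker (adjusted p = 0.258, edgeR), where Gbp2 (0.30, adjusted p = 0.00631) and Gbp3 (0.50, adjusted p = 0.00959) were called higher as well.

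NK-like cells had 2 members called higher than CD8 T-like cells (23.3% of all genes), Gbp5 by 0.75 and Gbp3 by 0.49. Called lower were 4 members (23.3% of all genes), Iigp1 by -1.10, Gbp2 by -0.87, Igtp by -0.86 and Irgm1 by -0.51. Igtp had 16.3 to 30.6 CPM in NK-like and 45.7 to 53.1 CPM in CD8 T-like cells, which did not overlap. With total UMIs in place of TMM factors the called genes that were higher made up 36.9% rather than 49.9%, and the members 2 higher and 7 lower. The call of Irgm1 (edgeR adjusted p = 0.0341) was lost without the 2DG library (0.0667), the 2DG plus anti-PD-L1 library (0.0633) or the 2FF plus anti-PD-L1 library (0.157). Gates that required 1 more marker (edgeR adjusted p = 0.235) and a fit without the library block (0.0679) ended this call too.

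Macrophage-like cells had more of the family than CD8 T-like cells. In CD8 T-like minus macrophage-like cells none of the members was called higher (40.7% of all genes) and all 10 were called lower (40.4% of all genes), with a median log2 difference of -1.35 beside 0.00 for all genes. Iigp1 was at 11.2 to 37.9 CPM in CD8 T-like and 117 to 399 CPM in macrophage-like cells, a difference of -4.19 ± 0.20 (SE, 6 libraries, edgeR adjusted p = 2.11e-08). Gbp2 was at 59.9 to 105 CPM and 214 to 669 CPM, a difference of -2.78 ± 0.12. Both pairs of ranges lay apart. In the control library, by contrast, Gbp4 was higher in CD8 T-like cells (79.2 CPM against 39.1 in macrophage-like cells). So were Ifi47 (87.8 against 46.3), Igtp (50.3 against 36.1), Irgm2 (23.5 against 17.8) and Gbp7 (151 against 145). Gbp4 (-0.50, edgeR adjusted p = 0.0212) and Ifi47 (-0.46, edgeR adjusted p = 0.0283) differed least. Both calls were lost with total UMIs in place of TMM factors, which moved the median of all genes by 0.19, where 8 members were lower and the higher genes made up 58.5% of calls rather than 50.1%. Leaving out the 2FF library also ended both calls (adjusted p = 0.0772 for Gbp4 and 0.0919 for Ifi47), as did leaving out the antibody library (0.0544 and 0.0760) or the combination with 2DG (0.0709 and 0.0919) or with 2FF (0.0534 and 0.0938).

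RNA of macrophages in the CD8 T-like sums was checked beside these values. Macrophage markers in CD8 T-like cells reached 1.12% to 2.35% of their level in macrophage-like cells of the same library. Iigp1 in CD8 T-like cells was at 3.84% to 12.8% of the macrophage-like level, Gbp3 at 30.8% to 42.2% and Gbp4 at 53.6% to 202%. Every member exceeded the share of the markers in every library, but only macrophages were looked at as a source. The part of RNA carried over from these or other cells in the CD8 T-like values was not tested.

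Between macrophage-like and monocyte-like cells the members split. Called higher in macrophage-like cells was 1 member (28.9% of all genes), Iigp1, at 117 to 399 CPM against 17.2 to 175 CPM, with a log2 difference of 1.60 ± 0.18 (edgeR adjusted p = 8.30e-05) and higher in 6 of 6 libraries. Called lower were 7 members (27.6% of all genes), with the largest differences for Ifi47 (-0.82 ± 0.07, edgeR adjusted p = 1.34e-05), Irgm1 (-0.68) and Gbp5 (-0.64), each lower in 6 of 6. Gbp4 (0.18) and Gbp7 (-0.04) were not called. With total UMIs in place of TMM factors the median of all genes moved by 0.16, the higher genes made up 70.7% of calls rather than 51.1%, and 2 members were higher and 4 lower. Without the library block only 1 member, Iigp1, was called. Among other GTPases 5 of 9 tested were called higher and 4 lower. Gbp2b (3.39), F830016B08Rik (1.93) and Gm4951 (1.84) were higher and Tgtp1 (-0.98) lower. All 15 type I interferon-stimulated genes were lower, Oas3 by -2.06.

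Neutrophil-like cells had 6 members called higher than monocyte-like cells (27.9% of all genes) and 2 lower (34.1% of all genes). Irgm2 was at 48.3 to 126 CPM in neutrophil-like and 13.9 to 44.3 CPM in monocyte-like cells, with ranges that did not overlap and a log2 difference of 1.73 ± 0.15 (edgeR adjusted p = 2.39e-07). Irgm1 (1.14), Igtp (0.97), Gbp2 (0.93), Gbp5 (0.93) and Gbp7 (0.79) were also higher. Iigp1 was lower in 6 of 6 libraries, at 3.19 to 46.4 CPM against 17.2 to 175 CPM, by -1.94 ± 0.15 (edgeR adjusted p = 1.09e-07), and Gbp3 by -0.53. Without the library block the calls of Gbp3 and Gbp5 were lost (edgeR adjusted p = 0.290 and 0.0515). With total UMIs the median of all genes moved by -0.36 and the higher genes made up 29.1% of calls rather than 45.0%, with 6 members higher and 3 lower. The other lists did not all go the same way. Of other interferon-inducible GTPases 1 of 9 tested was called higher and 4 lower, and of other interferon-gamma targets 2 of 9 higher and 5 lower. The signal chain had 6 of 11 higher and 1 lower, type I genes 10 of 15 higher and 2 lower, and autophagy genes 7 of 10 higher. In the signal chain Irf1 was higher by 1.96 and Irf8, a factor of monocyte and dendritic cell development, lower by -2.18.

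**Figure D5:**
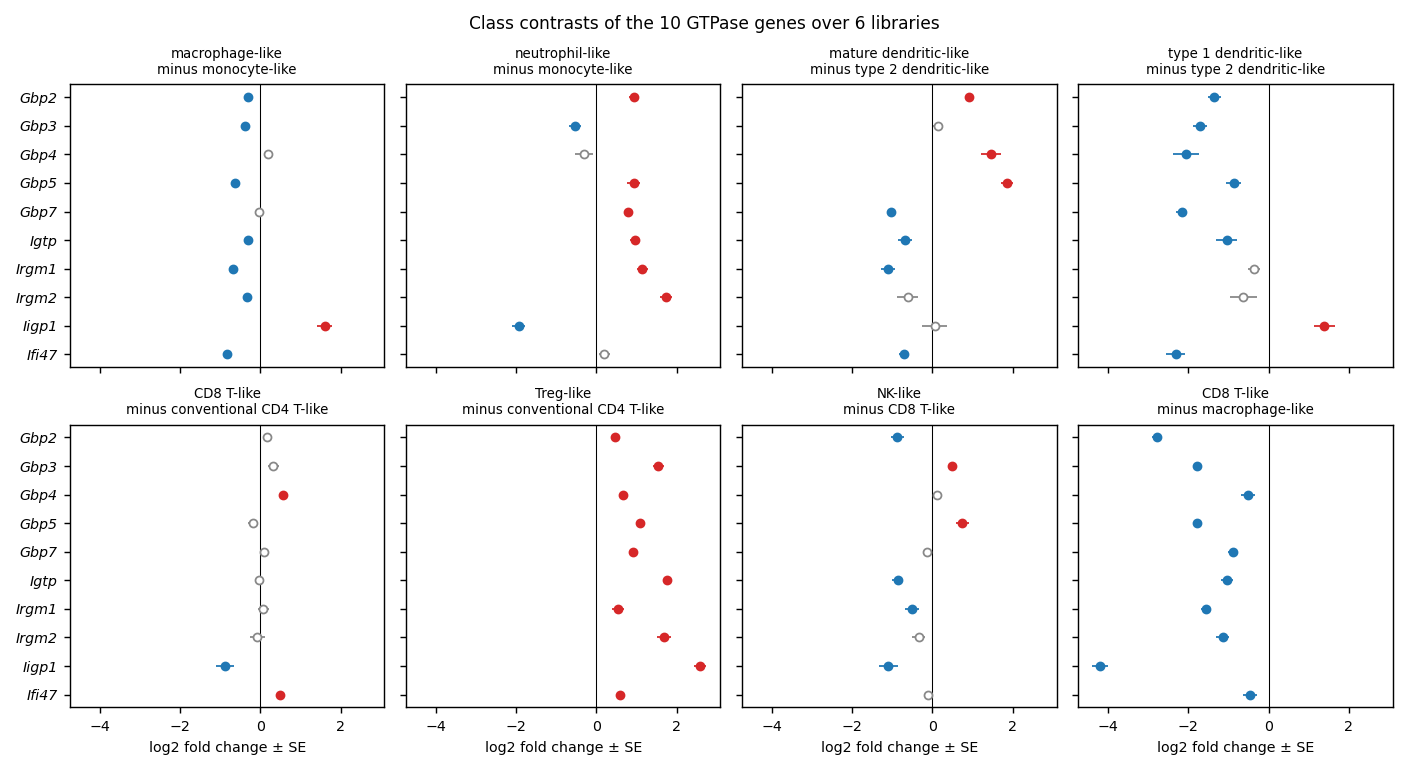
Each of the 8 panels shows 1 comparison of cell classes, with the log2 difference of each of the 10 genes as a point and its SE as a bar, over 6 libraries. Filled red points were called higher, filled blue points lower and open grey points not called. Iigp1 lies at 2.58 in Treg-like minus conventional CD4 T-like and at -4.19 in CD8 T-like minus macrophage-like cells.

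Mature and type 2 dendritic-like cells differed in both directions, with shares of members called near those of all genes. Mature dendritic-like cells, gated on Ccr7 and other markers of migration, had 3 members called higher than type 2 dendritic-like cells (29.4% of all genes) and 4 lower (30.1% of all genes). Gbp5 was at 196 to 340.2 CPM in mature and 28.8 to 120 CPM in type 2 cells, apart in range, with a log2 difference of 1.85 ± 0.15 (edgeR adjusted p = 7.41e-07). Gbp4 (1.46) and Gbp2 (0.92) were higher too, and Irgm1 (-1.11), Gbp7 (-1.02), Ifi47 (-0.71) and Igtp (-0.68) were lower. With gates that required 1 more marker the calls of Igtp (edgeR adjusted p = 0.180) and Ifi47 (0.291) were lost. With total UMIs in place of TMM factors the median of all genes moved by -0.15, the higher genes made up 39.1% of calls rather than 49.4%, and 3 members were higher and 5 lower.

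Type 1 dendritic-like cells had 1 member called higher than type 2 (20.1% of all genes) and 7 lower (22.2% of all genes). The higher one was Iigp1, at 78.8 to 349 CPM against 34.0 to 140 CPM, by 1.39 ± 0.26 (edgeR adjusted p = 0.000925) and in 6 of 6 libraries. Ifi47 (-2.32), Gbp7 (-2.17) and Gbp4 (-2.06) were lower by the most. With gates that required 1 more marker 4 members were called, and Gbp2 and Gbp5 were no longer lower. The classes hold few cells, 26 to 105 of type 1 and 58 to 121 of type 2 in a library, and Irgm2 had no UMI in type 1 cells with 2DG plus anti-PD-L1.

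Over the 72 sums of a class and a library, the genes whose log2(CPM + 5) ran most like the members' mean were Cxcl10 (Pearson r = 0.844), Parp14 (0.836), Zbp1 (0.813), Isg15 (0.793) and Vps26a (0.793), of 17105 genes compared. The members' own r with that mean ran from 0.485 for Iigp1 to 0.887 for Igtp. Each member is part of the mean, which raises its r, so these values are not comparable with those of the other genes. The closest pairs of members were Gbp7 and Ifi47 (0.825), Gbp2 and Gbp5 (0.819) and Igtp and Irgm2 (0.801), which overlap in the genome, and the least alike were Gbp4 and Irgm1 (-0.105). The 72 points share libraries, mice and depth, so these values describe the sums and carry no p-value.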

How the data were processed

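Single-cell RNA was measured in 6 libraries, 1 mouse each, grouped by the treatment in the labels. The values the authors deposited are UMI counts for each gene in each called cell, with no normalization. The matrix headers name cellranger 7.0.0, and the submitters' processing notes name Cell Ranger 3.1.0 and mm10. Reads were aligned by that pipeline before deposit. Members, gene lists and tests were chosen with earlier results of these data known.

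Cells with fewer than 250 genes or over 5% mitochondrial UMIs were left out. A cell joined the lineage of which it had the highest share of markers with a UMI, given at least 2 to 4 markers. T-like cells were divided by Cd8a or Cd8b1, Cd4 and Foxp3. The scoring was set after the data were seen. UMIs were summed per class and library and given as CPM with exact 95% Poisson intervals, which cover counting error only. Doublets were kept, and cells with 2 or more marker UMIs of another lineage were left out in an alternative.

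Classes were compared with edgeR 4.0.16 (quasi-likelihood test, TMM factors, false discovery rate 0.05). The library was a block because both classes come from the same mouse. Treatments were compared as log2 ratios of CPM + 5, for genes that reached 50 UMIs in the pair of libraries, with no test. Alternatives were DESeq2 1.42.0, no filter on low counts, no block, each library left out, stricter gates, a 10% mitochondrial limit, thinning to 1000 UMIs, CPM + 1, centring, a minimum of 20 UMIs and the mean over cells. Total UMIs in place of TMM factors, and class contrasts without possible doublets, were added after the data were seen. The named genes are the 10 members, up to 4 genes of each list with the largest change, and the 5 genes most alike. Of the lists, 14 other GTPases were written and 10 are in the files (not Gbp11, Gm12250, Mx1 and Mx2), and 11 of 12 interferon-gamma targets are (not Cxcl11). Scripts were tested on simulated data. Some items are not reported here.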

Additional observations from a re-analysis of the deposited data

Results flagged for a closer look

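In 3 members the treated libraries lay on opposite sides of control in CD8 T-like and macrophage-like cells. All 5 treated libraries were below control in CD8 T-like cells and above it in macrophage-like cells, and the difference between the classes was not tested. Of all genes, 29.8% were below control in all 5 in CD8 T-like cells, a share near that of the members (3 of 10). In macrophage-like cells 23.1% of all genes were above control in all 5, as were all 10 members. The median treated library was at 0.861 times the control CPM of Gbp7 in CD8 T-like and 1.55 times in macrophage-like cells. For Irgm1 the ratios were 0.705 and 1.69, and for Irgm2 0.676 and 1.80. The control library had 121 CD8 T-like cells, and the counting intervals lay wholly below control in 2 of 5 treated libraries for Irgm1, 1 of 5 for Irgm2 and 0 of 5 for Gbp7. Without possible doublets the ratio of Gbp7 with 2DG in CD8 T-like cells changed sign.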

How the results depend on the processing

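Of the counts and levels that answer a comparison, 322 of the alternative values stayed within the limits set and 18 moved. Without the replicate block (the library), macrophage-like minus monocyte-like cells had 1 member called. With the stricter gate 4 members were called in type 1 minus type 2 dendritic-like cells, where Gbp2 (log2 difference 0.0019) and Gbp5 (0.35) turned direction. With no filter on low counts 5 were called in CD8 T-like minus conventional CD4 T-like cells. Past 2-fold in the 2DG combination over the antibody alone were 1 member in CD8 T-like cells with CPM + 1, 3 in neutrophil-like cells with thinning and with the mean over cells, and 0 in monocyte-like cells with the stricter gate. In the 2FF combination over the antibody alone there were 0 in CD8 T-like cells with thinning and with the mean over cells, 0 in monocyte-like cells without possible doublets, and 1 in macrophage-like cells with CPM + 1, centring, thinning and the mean over cells. In the 2DG combination over 2DG there were 2 in neutrophil-like cells with at least 20 UMIs or the stricter gate and 2 in monocyte-like cells after centring, and in the 2FF combination over 2FF 1 in CD8 T-like cells without possible doublets. The causes were not tested. Counts over control stayed within 1.5 times of those reported under all alternatives. With 1 mouse per treatment, no treatment ratio has a replicate, and small classes limit the depth.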
